A study of Rattus norvegicus with 9 samples.

Results

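The insulin-like growth factor (IGF) binding proteins, their ligand IGF1 and the IGF receptors were examined in rat kidney after contrast-induced acute kidney injury (CIAKI), with and without the plant flavonoid icariin. The 10 genes were chosen by name, as the rows of the gene table whose symbol was Igfbp1, Igfbp2, Igfbp3, Igfbp4, Igfbp5, Igfbp6, Igfbp7, Igf1, Igf1r or Igf2r. All 10 were found once each among 36267 features, and all 10 were among the 16731 features that passed the filter on low values. CIAKI+icariin rats received 100 mg/kg icariin by stomach tube once a day for 3 days and then went through the injury protocol. CIAKI rats went through that protocol alone, which was 200 mg/kg furosemide by stomach tube, 6 h of dehydration and an injection of iopromide, an iodinated contrast medium of 370 mg iodine per mL, at 15 mL/kg into the tail vein. Control rats were untreated, so effects of the contrast medium, the diuretic and the water loss cannot be told apart. Each group had 3 separate rats with 1 kidney RNA library each. The strain, age and sex of the rats and the time from injection to removal of the kidney are not known here.

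IGF1 and IGF2 act through the IGF1 receptor, a tyrosine kinase close to the insulin receptor, while the IGF2 receptor takes up IGF2 and carries it to lysosomes. In blood and tissue fluid nearly all IGF is held by the IGF binding proteins, which prolong its life, limit its access to receptors and are themselves opened by proteases such as the pappalysins. IGFBP1 is best known as a liver product that rises in fasting and cell stress and falls with insulin, IGFBP3 is the main carrier in serum, and IGFBP7, which binds IGF weakly, is measured in urine with TIMP2 as a marker of stressed kidney tubules.

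The genes of IGFBP1 and IGFBP3 lie next to each other on rat chromosome 14, on opposite strands, and the genes of IGFBP2 and IGFBP5 are neighbours on chromosome 9. The promoters of Igfbp1 and Igfbp3 are shown because of these adjacent genes Igfbp1 changed most of the 10 after the protocol while Igfbp3 did not pass the test. Each sequence runs 5′ to 3′ on the gene's own strand, covers 250 bases before to 50 bases from the RefSeq start of transcription in the GRCr8 build, and has matches to the searched motifs in capitals. Igfbp1 is read from chr14:86261027-86261326, plus strand, and Igfbp3 from chr14:86277895-86278194, minus strand.
Igfbp1: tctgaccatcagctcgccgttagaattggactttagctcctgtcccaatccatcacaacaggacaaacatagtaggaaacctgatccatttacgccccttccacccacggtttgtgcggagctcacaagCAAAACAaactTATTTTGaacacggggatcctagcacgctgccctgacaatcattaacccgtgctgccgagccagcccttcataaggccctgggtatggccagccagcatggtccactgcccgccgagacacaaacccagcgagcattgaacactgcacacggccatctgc
Igfbp3: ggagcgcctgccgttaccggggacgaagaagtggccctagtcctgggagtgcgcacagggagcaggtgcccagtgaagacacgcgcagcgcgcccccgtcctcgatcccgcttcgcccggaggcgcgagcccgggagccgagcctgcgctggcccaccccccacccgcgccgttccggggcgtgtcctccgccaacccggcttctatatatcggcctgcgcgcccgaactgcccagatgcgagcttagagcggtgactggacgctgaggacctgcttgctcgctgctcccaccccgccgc

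In the rat and human IGFBP1 promoters the insulin response element is known as a pair of forkhead (FOXO) sites in opposite orientation. The Igfbp1 window held 1 TGTTTTG, here in its reverse complement CAAAACA at positions -121 to -115 from the start of transcription, and 1 TATTTTG at -110 to -104, and together these span the 18 bases CAAAACAAACTTATTTTG. TGTTTTG was found, on either strand, in 6.28% of 33469 rat promoter windows of the same length, TATTTTG in 4.96% and both together in 0.430% (144 windows). Both motifs stand for the forkhead sites of this known element. Their presence in the Igfbp1 window was thus given by the choice of motifs, and the shares do not make it a finding. The other motifs searched were AGAACA, part of the glucocorticoid receptor site (20.7% of windows), and ACGTG, part of the hypoxia element (19.3%). The Igfbp1 window held no exact match to either. Sites that differ from these letters or lie outside the window were not searched, so this does not show that the gene lacks them. The Igfbp3 window held none of the 4 motifs, and its GC content was 71.7%, against 54.0% for Igfbp1 and a median of 51.7% over all windows. Of the other members, the Igf1 window held TGTTTTG at -67 to -61 and AGAACA at -55 to -50, and the Igfbp6 window held 1 AGAACA. There were 2 matches to ACGTG in the Igfbp2 window, 1 in Igfbp7, 3 in Igf1r and 4 in Igf2r, where a palindromic CACGTG counts as a match on each strand. The windows of Igfbp4 and Igfbp5 held none of the 4 motifs. These matches describe the letters of the windows only, and binding was not measured.

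Levels are in CPM, the reads of a gene scaled to the same total in every library, and 1 CPM stood for 64.38 to 90.4 reads. Even Igfbp6, the member with the fewest reads, rested on 48 to 145 reads in a library. Markers of kidney tubule (6 of 6 genes in the table), podocytes (4 of 4), endothelium (4 of 5) and stroma (7 of 7) were all present. Summed tubule markers were 19677 to 20051 CPM in CIAKI+icariin, 8709 to 11793 CPM in CIAKI and 20719 to 21528 CPM in control kidneys. Lrp2 was the largest part of this sum in every library, and the tubule markers did not all move together. Aqp2 had 388 to 573 CPM in CIAKI+icariin, 272 to 457 CPM in CIAKI and 189 to 219 CPM in control kidneys. Slc12a1 overlapped between CIAKI (1637 to 2895 CPM) and control (1030 to 2009 CPM). Summed podocyte markers were 607 to 776 CPM in CIAKI+icariin, 499 to 513 CPM in CIAKI and 770 to 835 CPM in control kidneys. Summed endothelial markers were 315 to 382 CPM in CIAKI+icariin, 242 to 262 CPM in CIAKI and 299 to 336 CPM in control kidneys. In CIAKI against control, 4 of 6 tubule markers were lower and 1 higher. Lower were also 4 of 4 podocyte, 2 of 4 endothelial and 2 of 5 macrophage markers, and of 7 stromal markers 2 were lower and 1 higher. Of all genes tested, 41.3% were called in this comparison, 20.8% higher and 20.5% lower. The macrophage and stromal counts were near that share. In CIAKI+icariin against control, 1 tubule and 1 endothelial marker were higher and 1 podocyte marker lower, where 0.628% of all genes were called. None of 3 adipocyte markers tested passed. Of 4 adrenal markers 2 were in the table, Star and Cyp11a1, and these summed to at most 1.20 CPM. Summed adipocyte markers were 16.1 to 22.2 CPM in CIAKI+icariin, 8.59 to 23.0 CPM in CIAKI and 12.7 to 54.1 CPM in control kidneys. Control 1 stood apart in them, with Plin1 at 12.9 CPM against at most 2.11 CPM in any other library. The part that these differences in cell markers had in the results below was not tested. In whole kidney, fewer cells of a type and less RNA per cell cannot be told apart. The library CIAKI+icariin 2 stood apart in reads of mitochondrially encoded genes (1.65%, against 3.86% to 5.71% in the 8 other libraries), and the calls below on the 10 genes did not change when those genes were left out of the totals.

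CIAKI kidneys had far more Igfbp1 RNA than control kidneys and less RNA for Igf1 and for 4 of the other binding proteins. In the kidneys of rats given icariin first, Igfbp1 was far below its CIAKI level and 2.02 times the control mean. The levels of Igf1 and Igfbp5 there overlapped with those of the controls. Those of Igfbp1, Igfbp2, Igfbp4, Igfbp7 and Igf1r did not, as was so for 19.3% of all genes, but no member passed the test against control. Of the 10 genes, 7 changed in CIAKI against control at an adjusted p below 0.05 (limma, adjusted over all 16731 genes), 2 higher (Igfbp1 and Igf1r) and 5 lower (Igfbp2, Igfbp4, Igfbp5, Igfbp7 and Igf1). Of all genes tested, 41.3% changed in this comparison (20.8% higher and 20.5% lower), so a call as such is common here. The groups did not overlap for 8 of the 10 genes, against 53.4% of all genes. The median log2 fold change of the 10 genes was -0.60, and that of all genes was -0.00. Of the 10, 7 changed again in CIAKI+icariin against CIAKI kidneys, 5 higher and 2 lower, where 39.4% of all genes changed (19.2% higher and 20.2% lower), with a median of 0.26 against 0.02 over all genes. The groups did not overlap for 7 of the 10, against 50.7% of all genes. The same 3 CIAKI libraries enter both comparisons, so a high or low value there pushes them in opposite directions. Fold changes were computed after adding 1 CPM, on the log2 scale, and this constant makes them smaller than the true change where a gene has few CPM.

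**Figure D1:**
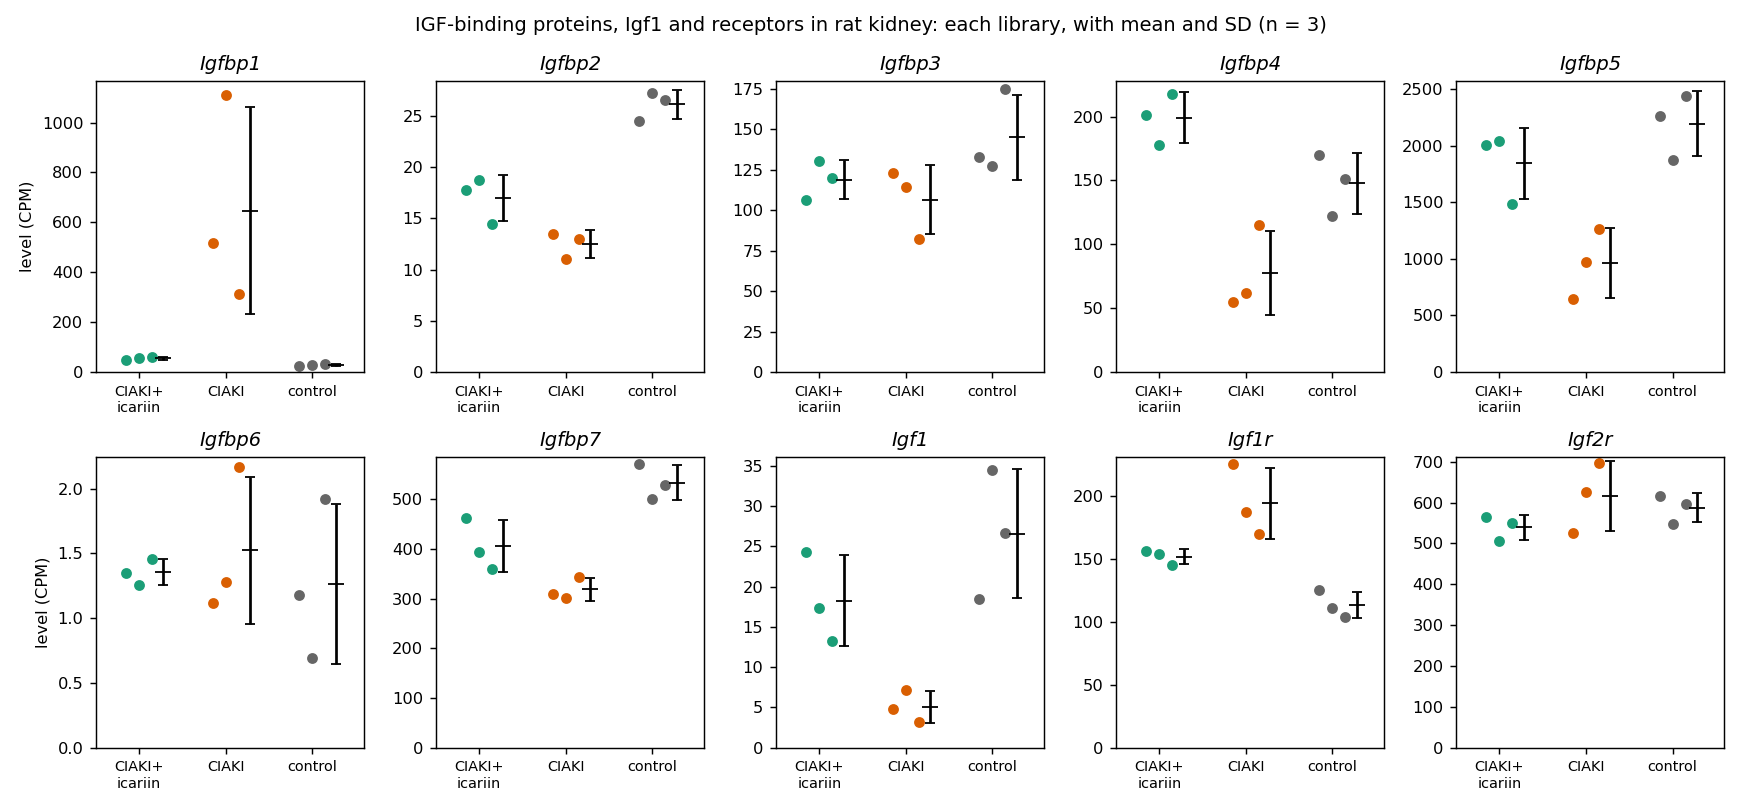
Level of each of the 10 genes in CPM (linear axes that start at 0) in every library of the CIAKI+icariin, CIAKI and control groups, with the mean and SD of 3 rats beside the points. The 3 CIAKI points of Igfbp1 lie between 312 and 1112 CPM, above every point of the other groups, while those of Igfbp4, Igfbp5 and Igf1 lie below all others.

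**Figure D2:**
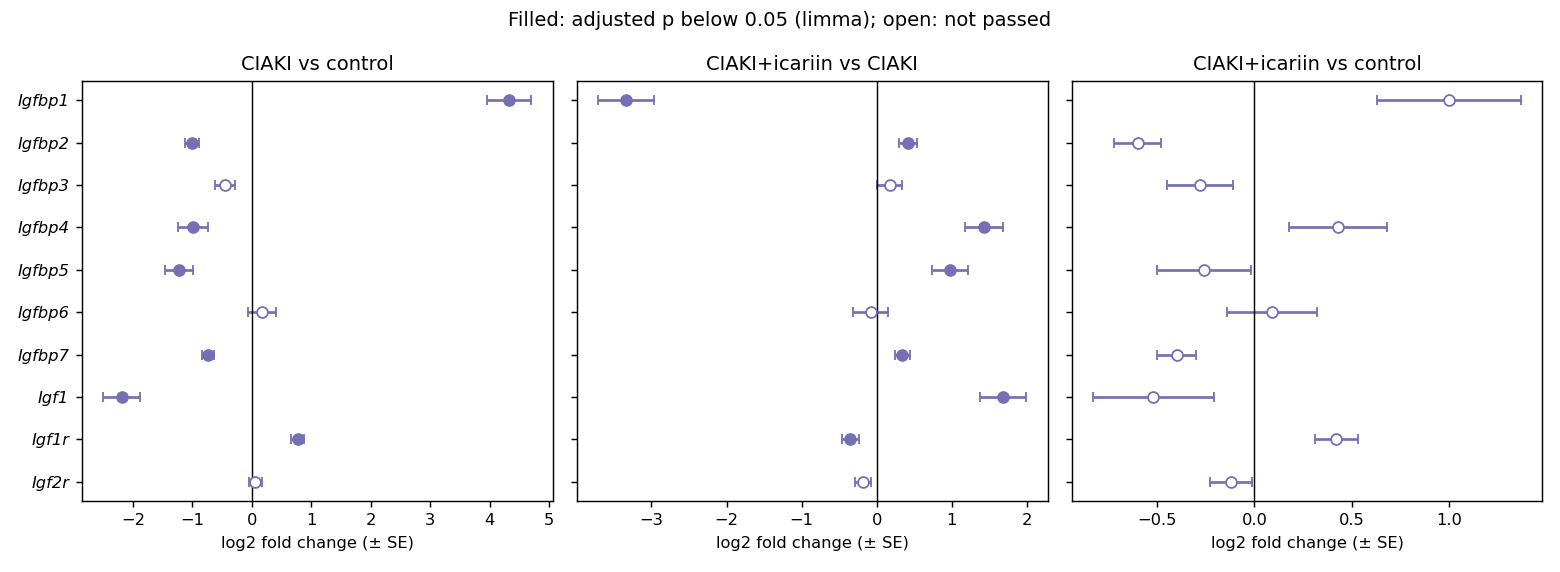
Log2 fold change on the log2(CPM + 1) scale, with its standard error, of each of the 10 genes in the 3 comparisons, each panel with its own axis range; filled points have an adjusted p below 0.05 in limma. Igfbp1 stands at 4.33 in CIAKI against control and at -3.34 in CIAKI+icariin against CIAKI, and no point is filled in CIAKI+icariin against control.

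Igf1 (ENSRNOG00000004517), the ligand made in kidney as well as liver, had 24.3, 17.3 and 13.2 CPM in CIAKI+icariin, 4.76, 7.22 and 3.25 CPM in CIAKI and 18.5, 34.5 and 26.7 CPM in control kidneys. Every CIAKI kidney was below every other kidney, while the CIAKI+icariin and control values overlapped. Igf1 fell by 2.19 on the log2 scale in CIAKI against control (SE 0.31, limma adjusted p = 7.0e-04), with a mean of 5.08 ± 2.01 CPM against 26.6 ± 8.02 CPM (SD, n = 3 each). In CIAKI+icariin it rose by 1.68 against CIAKI (SE 0.31, limma adjusted p = 0.0028), to 18.3 ± 5.63 CPM. The CIAKI+icariin mean was 0.687 of the control mean, a difference that did not pass (log2 fold change -0.52, adjusted p = 0.654).

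Igf2, the other ligand, was scarce, as in adult rodent tissue in general. It had 3.91, 3.16 and 2.78 CPM in CIAKI+icariin, 1.23, 2.20 and 1.49 CPM in CIAKI and 2.95, 2.99 and 3.58 CPM in control kidneys. All 3 CIAKI kidneys were lowest, with log2 fold changes of -0.67 against control (SE 0.18, adjusted p = 0.014) and, for CIAKI+icariin against CIAKI, 0.71 (SE 0.18, adjusted p = 0.013). The first call ended without control 3 (adjusted p = 0.054) and with quantile normalization (-0.46, adjusted p = 0.066). Igfals encodes the acid-labile subunit, which joins IGF and IGFBP3 or IGFBP5 in the ternary complex of serum and is known mainly from liver. It had 24.1, 25.1 and 22.3 CPM in CIAKI+icariin, 2.92, 5.87 and 12.6 CPM in CIAKI and 23.9, 23.0 and 27.9 CPM in control kidneys. The CIAKI kidneys were again the 3 lowest, with CIAKI 3 well above CIAKI 1 and CIAKI 2. Igfals fell by 1.85 in CIAKI (SE 0.36, adjusted p = 0.0034) and rose by 1.79 in CIAKI+icariin against CIAKI (SE 0.36, adjusted p = 0.0043).

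Igf1r (ENSRNOG00000014187), the signalling receptor, moved the other way from its ligand. It had 156, 154 and 145 CPM in CIAKI+icariin, 225, 187 and 170 CPM in CIAKI and 125, 111 and 104 CPM in control kidneys, so that none of the groups overlapped and CIAKI+icariin lay in the middle. Igf1r rose by 0.77 in CIAKI (SE 0.11, adjusted p = 7.3e-04) and fell by 0.35 in CIAKI+icariin against CIAKI (SE 0.11, adjusted p = 0.03). The call in CIAKI+icariin against CIAKI ended without CIAKI+icariin 1, 2 or 3 (adjusted p = 0.058, 0.067 and 0.085) and without CIAKI 1 or 2 (0.077 and 0.053), and with no filter on low values (0.054). As a description of receptor against ligand, the log2 ratio of Igf1r to Igf1 CPM was 2.68, 3.16 and 3.46 in CIAKI+icariin, 5.56, 4.70 and 5.71 in CIAKI and 2.76, 1.69 and 1.96 in control kidneys. The ratio does not correct for transcript length, so only its shift between libraries can be read.

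Igf2r (ENSRNOG00000014997), the scavenging receptor, did not pass in any comparison. It had 564, 505 and 549 CPM in CIAKI+icariin, 526, 626 and 697 CPM in CIAKI and 617, 548 and 596 CPM in control kidneys, and the groups overlapped throughout. Its log2 fold change was 0.06 in CIAKI against control (SE 0.11, adjusted p = 0.679) and -0.18 in CIAKI+icariin against CIAKI (SE 0.11, adjusted p = 0.207); without CIAKI 1 the second comparison passed (-0.29, adjusted p = 0.037). Insr, the insulin receptor, had 153 to 157 CPM in CIAKI+icariin, 129 to 147 CPM in CIAKI and 130 to 132 CPM in control kidneys and was not called. Insrr, the insulin receptor-related receptor, known as an alkali sensor of kidney, had 25.9 to 31.3 CPM in CIAKI+icariin, 16.8 to 22.4 CPM in CIAKI and 25.1 to 39.0 CPM in control kidneys. It passed in CIAKI against control (-0.55, adjusted p = 0.029), though not without CIAKI 1 (0.095) or control 3 (0.089), or with only the 6 libraries compared (0.052). It also passed in CIAKI+icariin against CIAKI (0.51, adjusted p = 0.041), though not without CIAKI+icariin 1 (0.108), CIAKI+icariin 2 (0.116), CIAKI 1 (0.128), CIAKI 2 (0.056) or control 1 (0.055), with no filter on low values (0.069) or with the replicate block (0.057). Of these 4 genes around the ternary complex and the insulin receptor, 3 were lower and 1 did not pass in CIAKI against control (median log2 fold change -0.61), and 3 were higher and 1 did not pass in CIAKI+icariin against CIAKI (median 0.61), where 41.3% and 39.4% of all genes were called.

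Igfbp1 (ENSRNOG00000058780) gave the widest range of the 10 genes. It had 49.5, 55.9 and 60.1 CPM in CIAKI+icariin, 518, 1112 and 312 CPM in CIAKI and 23.1, 28.3 and 30.4 CPM in control kidneys. The 3 groups did not overlap, and the lowest CIAKI kidney was far above the highest of the others. The CIAKI mean of 647 ± 416 CPM was 23.8 times the control mean of 27.2 ± 3.73 CPM (log2 fold change 4.33, SE 0.37, limma adjusted p = 7.2e-05). The CIAKI+icariin mean of 55.2 ± 5.33 CPM was 0.0852 of the CIAKI mean (log2 fold change -3.34, SE 0.37, limma adjusted p = 2.8e-04). Both calls held under every alternative run, with log2 fold changes of 3.84 to 4.76 and of -3.76 to -2.85. The CIAKI kidneys also differed most among themselves, with a coefficient of variation of 64.2% and a highest value 3.57 times the lowest, against coefficients of 9.67% in CIAKI+icariin and 13.7% in control kidneys. All 3 CIAKI+icariin kidneys were above all 3 control kidneys, with a ratio of means of 2.02. That difference did not pass the adjusted threshold (log2 fold change 1.00, SE 0.37, unadjusted 0.024 and adjusted p = 0.361 in limma), except when the CIAKI libraries were left out of the fit (adjusted p = 0.02).

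Igfbp3 (ENSRNOG00000061910), the neighbour of Igfbp1, had 106, 130 and 120 CPM in CIAKI+icariin, 123, 114 and 82.2 CPM in CIAKI and 133, 127 and 175 CPM in control kidneys. The CIAKI values were all below the control values, but by little, and they overlapped with CIAKI+icariin. The log2 fold change of CIAKI against control was -0.45 (SE 0.17, adjusted p = 0.059), which did not pass; it passed with DESeq2 on whole reads (adjusted p = 0.034), with quantile normalization (0.036) and without CIAKI 1 (0.04). The value for CIAKI+icariin against CIAKI was 0.17 (SE 0.17, adjusted p = 0.447). The log2 ratio of Igfbp1 to Igfbp3 CPM, a description of the adjacent pair, was -1.10, -1.22 and -1.0 in CIAKI+icariin, 2.07, 3.29 and 1.92 in CIAKI and -2.53, -2.17 and -2.53 in control kidneys. The ratio was highest in the 3 CIAKI kidneys, and all CIAKI+icariin kidneys lay between those and the controls.

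Igfbp5 (ENSRNOG00000017206), which binds extracellular matrix and can join the ternary complex, had 2006, 2041 and 1483 CPM in CIAKI+icariin, 647, 972 and 1266 CPM in CIAKI and 2263, 1877 and 2438 CPM in control kidneys. All CIAKI kidneys were lowest, and CIAKI 3 came nearest to the other groups. Igfbp5 fell by 1.23 in CIAKI (SE 0.24, adjusted p = 0.0033) and rose by 0.98 in CIAKI+icariin against CIAKI (SE 0.24, adjusted p = 0.011), with a CIAKI mean of 962 ± 309 CPM against 2193 ± 287 CPM in control.

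Igfbp4 (ENSRNOG00000010635), known as an inhibitor of IGF action until it is cleaved, had 201, 178 and 218 CPM in CIAKI+icariin, 54.9, 62.0 and 115 CPM in CIAKI and 170, 122 and 151 CPM in control kidneys. CIAKI 3 stood well above the other CIAKI kidneys and just below the lowest control. Igfbp4 fell by 0.99 in CIAKI (SE 0.25, adjusted p = 0.011) and rose by 1.43 in CIAKI+icariin against CIAKI (SE 0.25, adjusted p = 0.0022). Its CIAKI+icariin values were all above the control values, by a ratio of means of 1.35 that did not pass (adjusted p = 0.629).

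Igfbp2 (ENSRNOG00000016957), a serum carrier that rises in fasting, and Igfbp7 (ENSRNOG00000002050), the weak binder, showed the same order of groups with no overlap. Igfbp2 had 17.8, 18.8 and 14.5 CPM in CIAKI+icariin, 13.5, 11.0 and 13.0 CPM in CIAKI and 24.5, 27.3 and 26.6 CPM in control kidneys. Igfbp7 had 462, 395 and 360 CPM in CIAKI+icariin, 310, 302 and 344 CPM in CIAKI and 572, 501 and 528 CPM in control kidneys. In both genes the CIAKI+icariin kidneys thus lay between the other groups. In CIAKI, Igfbp2 fell by 1.01 (SE 0.12, adjusted p = 3.5e-04) and Igfbp7 by 0.74 (SE 0.10, adjusted p = 6.8e-04). In CIAKI+icariin against CIAKI, Igfbp2 rose by 0.42 (SE 0.12, adjusted p = 0.024) and Igfbp7 by 0.34 (SE 0.10, adjusted p = 0.027). Those smaller differences were near the threshold. Leaving out a library also leaves fewer rats in a group, so a lost call does not show that this library carried the difference. Over all alternatives the log2 fold change stayed at 0.33 to 0.52 for Igfbp2 and at 0.25 to 0.43 for Igfbp7. The Igfbp2 call ended without CIAKI+icariin 1 (0.075), CIAKI+icariin 2 (0.089) or CIAKI 2 (0.068), and with only the 6 libraries compared (0.062). The Igfbp7 call ended without CIAKI+icariin 1 (0.086), CIAKI+icariin 2 (0.057), CIAKI 1 (0.067) or CIAKI 2 (0.076), and with no filter on low values or only the 6 libraries compared (0.051 each). With either CIAKI+icariin 1, CIAKI+icariin 2 or CIAKI 2 left out, 4 of the 10 genes remained called in that comparison (Igfbp1, Igfbp4, Igfbp5 and Igf1).

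Igfbp6 (ENSRNOG00000010977), which prefers IGF2 over IGF1, was near the detection filter and did not pass in any comparison. It had 1.35, 1.26 and 1.46 CPM in CIAKI+icariin, 1.12, 1.28 and 2.17 CPM in CIAKI and 1.18, 0.689 and 1.92 CPM in control kidneys. Its log2 fold changes were 0.17 (SE 0.23, adjusted p = 0.579) in CIAKI against control and -0.08 (SE 0.23, adjusted p = 0.812) in CIAKI+icariin against CIAKI.

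The 7 binding protein genes summed to 2844, 2819 and 2257 CPM in CIAKI+icariin, 1668, 2574 and 2133 CPM in CIAKI and 3188, 2683 and 3351 CPM in control kidneys. Without Igfbp1 the sums were 2794, 2764 and 2197 CPM in CIAKI+icariin, 1150, 1462 and 1821 CPM in CIAKI and 3164, 2655 and 3320 CPM in control kidneys. The full sums of CIAKI and CIAKI+icariin overlapped, and those without Igfbp1 did not. In shares of reads, which are not corrected for transcript length, Igfbp1 made up 1.74%, 1.98% and 2.66% of the family's reads in CIAKI+icariin, 31.1%, 43.2% and 14.6% in CIAKI and 0.725%, 1.05% and 0.906% in control kidneys. Igfbp5 made up 65.7% to 72.4% in CIAKI+icariin, 37.8% to 59.3% in CIAKI and 69.9% to 72.8% in control kidneys, while Igfbp7 stayed at 11.7% to 18.7% in all 9 libraries. CIAKI 2 was the kidney with the largest Igfbp1 share and CIAKI 3 the one with the smallest in its group. CIAKI 3 also had the lowest Igfbp1 and the highest Igfbp4, Igfbp5 and Igfals levels of the CIAKI kidneys. It was not the nearest to the controls in every gene, since its Igf1 and Igfbp3 levels were the lowest of the CIAKI kidneys and the furthest from control.

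**Figure D3:**
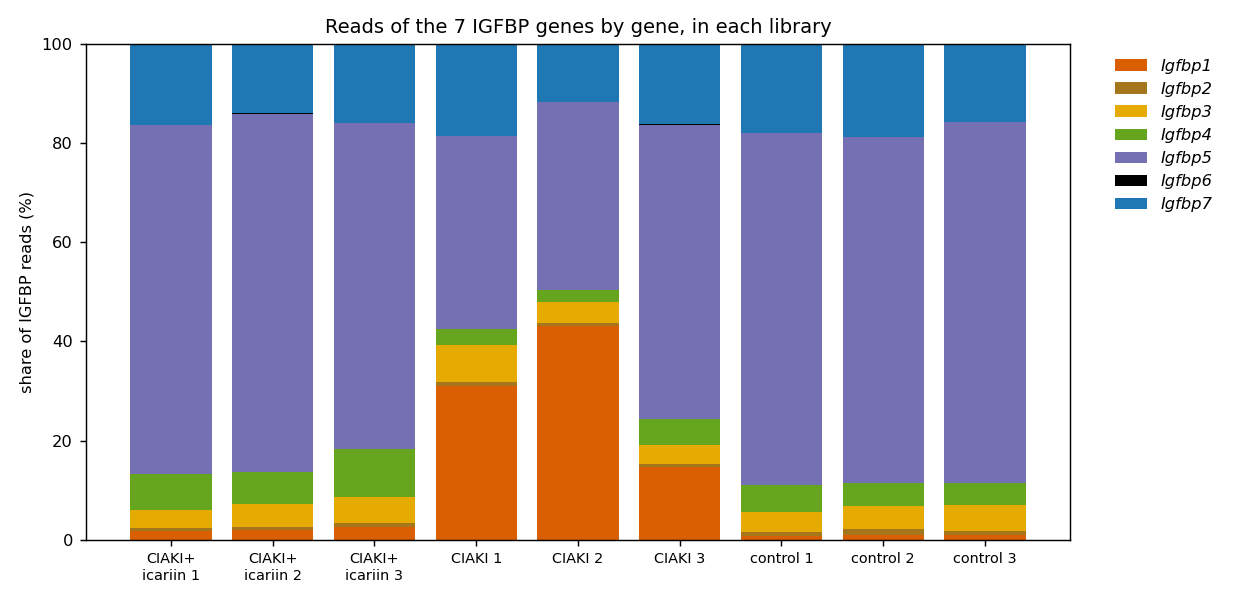
Share of the reads of the 7 IGF binding protein genes that each gene took, in percent and not corrected for transcript length, with a bar for each library of the CIAKI+icariin, CIAKI and control groups. Igfbp1 takes 14.6% to 43.2% in the CIAKI bars and at most 2.66% in the others, and the Igfbp5 part is smaller in the CIAKI bars (37.8% to 59.3%) than in the others.

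Reads per gene depend on transcript length, so the sums, shares and ratios of CPM above do not give the order of the genes within a kidney. For that, FPKM (fragments scaled to transcript length and library total) were used, which the authors' deposited table of selected mRNAs gives for CIAKI+icariin and CIAKI kidneys. That table listed 4 of the 10 genes. In the authors' deposited table, Igfbp1 had 25.4, 28.5 and 31.4 FPKM in CIAKI+icariin and 254, 565 and 159 FPKM in CIAKI kidneys, and Igfbp5 had 268, 271 and 202 FPKM in CIAKI+icariin and 82.8, 128 and 168 FPKM in CIAKI kidneys. The ratio of Igfbp1 to Igfbp5 computed from the authors' deposited table was 0.0947, 0.105 and 0.155 in CIAKI+icariin and 3.07, 4.39 and 0.946 in CIAKI kidneys. Per length, Igfbp1 was thus the higher of the pair in CIAKI 1 and CIAKI 2, about level with it in CIAKI 3, and far below it in each CIAKI+icariin kidney. In the authors' deposited table, Igfbp4 had 72.4, 63.4 and 80.1 FPKM in CIAKI+icariin and 18.9, 22.1 and 41.1 FPKM in CIAKI kidneys, and Igf1 had 10.6, 7.48 and 5.84 FPKM in CIAKI+icariin and 1.96, 3.11 and 1.41 FPKM in CIAKI kidneys. Igf2, also in the authors' deposited table, was lower than Igf1 per length in every kidney listed, at 0.534 to 0.791 FPKM in CIAKI+icariin and 0.261 to 0.379 FPKM in CIAKI.

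Between CIAKI+icariin and control kidneys, limma called 0 of the 10 genes, and 105 of all genes (0.628%). At an unadjusted p below 0.05 it counted 4 of the 10 (Igfbp1 and Igf1r higher, Igfbp2 and Igfbp7 lower), against 10.2% of all genes. On whole reads, edgeR called 0 of the 10 and DESeq2 called 3, Igfbp2 (-0.62, adjusted p = 1.4e-05), Igfbp7 (-0.40, adjusted p = 0.012) and Igf1r (0.42, adjusted p = 0.018). In limma these stood at -0.60 (SE 0.12, adjusted p = 0.082), -0.40 (SE 0.10, adjusted p = 0.164) and 0.42 (SE 0.11, adjusted p = 0.164). Igfbp2 also passed with TMM scaling (adjusted p = 0.048) and quantile normalization (0.034). The groups did not overlap for 5 of the 10 genes (Igfbp1, Igfbp4 and Igf1r higher, Igfbp2 and Igfbp7 lower), where 19.3% of all genes did not overlap.

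Proteases free IGF from its binding proteins. Of the 10 proteases and inhibitors listed, 6 were tested; in CIAKI against control 2 were higher, 2 lower and 2 did not pass (median log2 fold change -0.38), and in CIAKI+icariin against CIAKI 2 were higher, 1 lower and 3 did not pass (median 0.10). The shares of all genes called in these comparisons were 41.3% and 39.4%. Pappa2, whose product pappalysin-2 cleaves IGFBP3 and IGFBP5, had 16.6, 16.1 and 18.2 CPM in CIAKI+icariin, 14.8, 11.1 and 27.9 CPM in CIAKI and 52.8, 37.4 and 34.5 CPM in control kidneys. It fell by 1.24 in CIAKI (SE 0.28, adjusted p = 0.0076); its CIAKI+icariin level overlapped with CIAKI (log2 fold change 0.02, SE 0.28, adjusted p = 0.96) and lay below every control (-1.22 against control, adjusted p = 0.125). Stc1, whose product stanniocalcin-1 blocks pappalysins, had 55.6, 51.5 and 42.0 CPM in CIAKI+icariin, 10.7, 23.3 and 13.2 CPM in CIAKI and 11.3, 23.0 and 22.3 CPM in control kidneys. The CIAKI and control kidneys overlapped (log2 fold change -0.25, adjusted p = 0.547), and the CIAKI+icariin kidneys were above both, by 1.66 against CIAKI (SE 0.31, adjusted p = 0.0033) and by 1.41 against control (SE 0.31, adjusted p = 0.109), which did not pass. Timp1, an inhibitor of metalloproteinases, had 2.62 to 3.37 CPM in CIAKI+icariin, 8.02 to 13.7 CPM in CIAKI and 2.99 to 3.63 CPM in control kidneys. It rose by 1.35 in CIAKI (SE 0.20, adjusted p = 8.7e-04) and fell by 1.46 in CIAKI+icariin against CIAKI (SE 0.20, adjusted p = 6.9e-04).

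Of the secreted serine proteases of the HTRA family, which carry an IGFBP-like domain, Htra1 was 0.47 higher in CIAKI on the log2 scale (adjusted p = 0.045). That call ended without CIAKI+icariin 2 (0.057) or 3 (0.051), CIAKI 1 (0.135) or 3 (0.13), or control 1 (0.106), 2 (0.11) or 3 (0.073), and with quantile normalization (0.09) or no filter on low values (0.076). Htra4, at 0.892 to 1.32 CPM in CIAKI+icariin, 0.180 to 0.497 CPM in CIAKI and 0.647 to 1.34 CPM in control kidneys, was lower in CIAKI (-0.60, adjusted p = 0.024) and higher in CIAKI+icariin against CIAKI (0.65, adjusted p = 0.019). At such low levels the added 1 CPM shrinks the fold change, and with 0.1 CPM added in its place the values were -1.39 and 1.49. The Htra4 calls ended, against control, without CIAKI 1 (0.078), CIAKI 2 (0.051), control 1 (0.074) or control 2 (0.082), and, in the icariin comparison, without CIAKI+icariin 3 (0.059) or CIAKI 1 (0.064). With quantile normalization neither Htra4 change passed (-0.33, adjusted p = 0.19, and 0.39, adjusted p = 0.132).

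Of 9 further proteins with an IGFBP-like domain, 6 were tested; 2 were higher, 1 lower and 3 did not pass in CIAKI against control (median log2 fold change -0.14), and 2 were higher, 2 lower and 2 did not pass in CIAKI+icariin against CIAKI (median -0.26), against the same 41.3% and 39.4% of all genes called. Nov, the matricellular protein CCN3, had 4.32, 1.49 and 2.05 CPM in CIAKI+icariin, 9.45, 12.8 and 7.95 CPM in CIAKI and 2.86, 2.80 and 4.51 CPM in control kidneys. It rose by 1.33 in CIAKI (SE 0.30, adjusted p = 0.0066) and fell by 1.67 in CIAKI+icariin against CIAKI (SE 0.30, adjusted p = 0.0025). Ctgf, which encodes the fibrosis-associated CCN2, had 87.2 to 118 CPM in CIAKI+icariin, 154 to 254 CPM in CIAKI and 117 to 139 CPM in control kidneys. Ctgf fell by 0.88 in CIAKI+icariin against CIAKI (SE 0.18, adjusted p = 0.0051). Its increase in CIAKI (0.53, adjusted p = 0.042) ended without CIAKI+icariin 1 (0.057), CIAKI 1 (0.056), CIAKI 2 (0.32, adjusted p = 0.096) or control 1, 2 or 3 (0.069, 0.125 and 0.075), and also with edgeR on whole reads (0.056), TMM scaling (0.06), quantile normalization (0.07), the replicate block (0.074), no filter on low values (0.072), only the 6 libraries compared (0.057) and mitochondrial genes left out (0.051). Esm1, the endothelial proteoglycan endocan, rose by 1.10 in CIAKI+icariin against CIAKI (adjusted p = 0.02), a call that ended without CIAKI+icariin 1 (0.059) or 2 (0.052) or CIAKI 1 (0.064) or 2 (0.058). Wisp3, the CCN6 gene, lay at 0.297 to 1.57 CPM in all 9 libraries, with -0.64 in CIAKI (adjusted p = 0.013) and 0.47 in CIAKI+icariin against CIAKI (adjusted p = 0.045). The CCN6 changes did not pass with quantile normalization (adjusted p = 0.092 and 0.321), and the smaller of them ended without any CIAKI+icariin library (0.095, 0.115 and 0.076), CIAKI 2 (0.127), CIAKI 3 (0.106), control 2 (0.05) or control 3 (0.065), and with no filter on low values (0.059), only the 6 libraries compared (0.068) or the replicate block (0.079).

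Downstream of the receptors lies a chain of adaptors and kinases shared by IGF and insulin. Of 22 genes of this chain 21 were tested, and 6 were higher, 1 lower and 14 did not pass in CIAKI against control (median 0.09), while 1 was higher, 8 lower and 12 did not pass in CIAKI+icariin against CIAKI (median -0.16). The called share, 33.3%, was below the 41.3% of all genes in the first comparison, and 42.9% stood against 39.4% in the second. Akt1, the kinase at the centre of the chain, had 82.0, 81.9 and 70.4 CPM in CIAKI+icariin, 125, 107 and 101 CPM in CIAKI and 82.2, 83.6 and 79.2 CPM in control kidneys. It rose by 0.43 in CIAKI (SE 0.09, adjusted p = 0.0064) and fell by 0.50 in CIAKI+icariin against CIAKI (SE 0.09, adjusted p = 0.0034). The adaptor gene Shc1 moved by 0.44 (adjusted p = 0.011) in CIAKI against control and by -0.51 (0.0057) in CIAKI+icariin against CIAKI. Ptpn1, a phosphatase of the insulin receptor, stood at 0.53 (0.016) and -0.47 (0.028). Its calls ended without CIAKI 1 (0.051) or control 1 (0.055) in CIAKI against control. They ended in CIAKI+icariin against CIAKI without any library of the groups compared except CIAKI 3 (CIAKI+icariin 1, 2 and 3 at 0.054, 0.065 and 0.077, and CIAKI 1 and 2 at 0.08 each), and with only the 6 libraries compared (0.06). The member lower in CIAKI was Irs1, a substrate of both receptors (-0.41, adjusted p = 0.019, and 0.057 without CIAKI 3 or 0.07 without control 1). The member higher in CIAKI+icariin was the kinase gene Mtor (0.24, adjusted p = 0.015, and 0.059 without CIAKI+icariin 2). Irs1 and Mtor were singled out for their values.

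**Figure D4:**
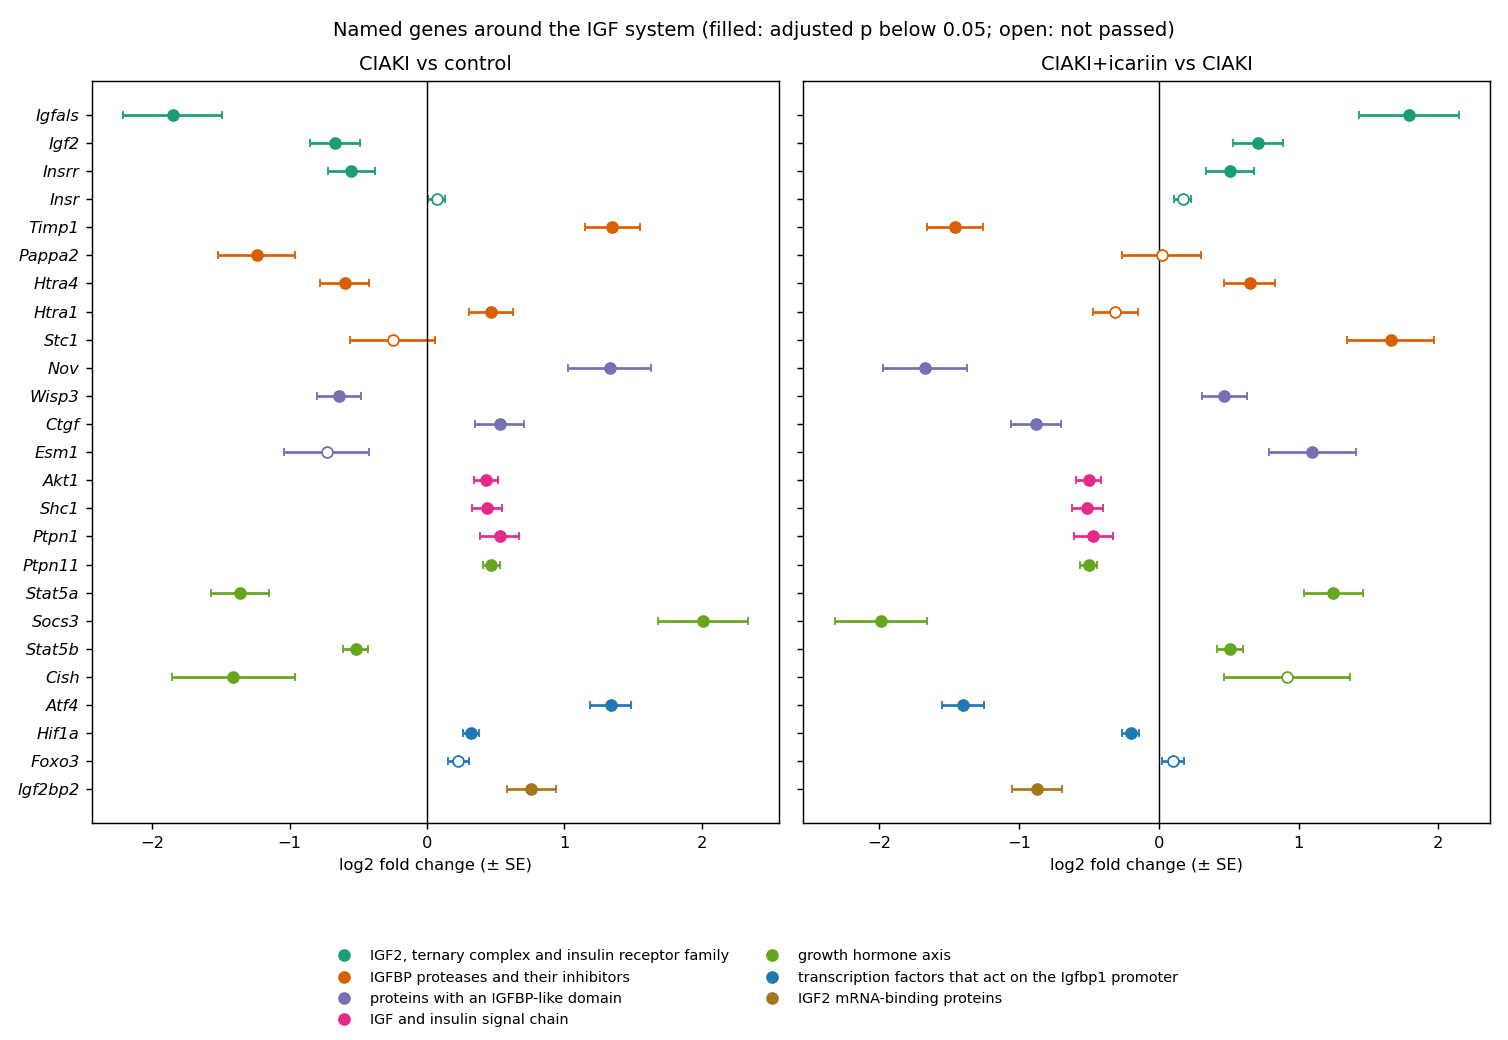
Log2 fold change on the log2(CPM + 1) scale, with its standard error, of 25 genes around the IGF system, coloured by list, in CIAKI against control (left) and CIAKI+icariin against CIAKI (right); filled points have an adjusted p below 0.05 in limma. Pappa2 (0.02) and Stc1 (1.66) in the right panel do not mirror their values of -1.24 and -0.25 in the left panel.

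Growth hormone drives Igf1 and Igfals in liver through its receptor, JAK2 and STAT5, and SOCS proteins damp that signal. Of 8 genes of this axis, 2 were higher, 5 lower and 1 did not pass in CIAKI against control (median -0.56), where 41.3% of all genes were called. In the icariin comparison, CIAKI+icariin against CIAKI, 3 were higher, 3 lower and 2 did not pass (median 0.49), where 39.4% of all genes were called. Stat5a had 21.0, 18.5 and 19.5 CPM in CIAKI+icariin, 7.71, 7.45 and 7.92 CPM in CIAKI and 31.4, 19.5 and 15.7 CPM in control kidneys. It fell by 1.36 in CIAKI (SE 0.21, adjusted p = 0.0011) and rose by 1.25 in CIAKI+icariin against CIAKI (SE 0.21, adjusted p = 0.0018). Stat5b moved in the same directions by -0.52 (adjusted p = 0.0016) and 0.51 (0.0018), and the receptor gene Ghr by -0.61 (0.007) and 0.72 (0.0034). Socs3 had 2.01, 2.15 and 1.01 CPM in CIAKI+icariin, 8.08, 17.2 and 6.18 CPM in CIAKI and 1.52, 1.31 and 2.10 CPM in control kidneys. It rose by 2.01 in CIAKI (SE 0.33, adjusted p = 0.0016) and fell by 1.99 in CIAKI+icariin against CIAKI (SE 0.33, adjusted p = 0.0019). The highest Socs3 value was in CIAKI 2, as for Igfbp1, but also as for Timp1, Nov and Ctgf. Akt1, Shc1 and Ptpn11, likewise higher in CIAKI, were highest in CIAKI 1. Ptpn11, the phosphatase SHP2, had 121 to 128 CPM in CIAKI+icariin, 165 to 189 CPM in CIAKI and 125 to 129 CPM in control kidneys (0.47 and -0.50, adjusted p = 6.8e-04 and 5.9e-04). The STAT5 target genes Cish and Socs2 were lower in CIAKI, by -1.41 (adjusted p = 0.033) and -0.86 (0.0071), and did not pass in CIAKI+icariin against CIAKI. The Cish call ended without CIAKI 1 (0.102), CIAKI 2 (0.071) or control 1, 2 or 3 (0.095, 0.062 and 0.071), and with no filter on low values (0.06). Jak2 did not pass in CIAKI (0.20, adjusted p = 0.065) and was lower in CIAKI+icariin against CIAKI (-0.38, adjusted p = 0.0044). Ghr, Socs2 and Jak2 were likewise singled out for their values.

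Of 10 transcription factors listed as acting on the Igfbp1 gene, 9 were tested, and where on the gene they act was not examined. In CIAKI against control 2 were higher and 7 did not pass, a called share of 22.2% against 41.3% of all genes. There were 2 lower and 7 that did not pass in CIAKI+icariin against CIAKI, where 39.4% of all genes were called. Atf4, a factor of the integrated stress response, had 90.9, 88.1 and 86.5 CPM in CIAKI+icariin, 232, 304 and 186 CPM in CIAKI and 88.6, 90.2 and 99.1 CPM in control kidneys. It rose by 1.34 in CIAKI (SE 0.15, adjusted p = 2.4e-04) and fell by 1.40 in CIAKI+icariin against CIAKI (SE 0.15, adjusted p = 2.3e-04). The CIAKI kidneys stood in the same order for Atf4 as for Igfbp1, which in 3 kidneys is a description only. Hif1a, the hypoxia-inducible factor, which is governed mainly at the protein level, moved by 0.32 (adjusted p = 0.0021) and -0.20 (0.02). The smaller Hif1a change ended without CIAKI+icariin 1 (0.061), CIAKI+icariin 3 (0.055) or CIAKI 3 (0.052), and with only the 6 libraries compared (0.06). The forkhead gene Foxo3 stood at 0.23 (adjusted p = 0.052) and 0.10 (0.37), neither of which passed. FOXO activity depends on the location and phosphorylation of the protein, which RNA does not show. Of the IGF2 mRNA-binding protein genes, Igf2bp2 was the member that passed the filter on low values, with 4.35, 5.11 and 3.55 CPM in CIAKI+icariin, 9.01, 9.78 and 7.39 CPM in CIAKI and 4.92, 5.60 and 3.81 CPM in control kidneys (0.76 and -0.87, adjusted p = 0.0083 and 0.0046). In CIAKI+icariin against control, limma called 0 of the 55 list genes tested, with 6 at an unadjusted p below 0.05; on whole reads edgeR called 0 and DESeq2 called 3, Foxo3, Pappa2 and Stc1.

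The genes whose profile was most like that of Igfbp1 were found by the root mean square difference of log2(CPM + 1) values, each centred on its own mean, over 9 libraries and 11979 genes with a mean of at least 5 CPM. The nearest were Fga (0.40), Gstm2 (0.41), Lcn2 (0.47), Plin2 (0.49) and Myc (0.53), which encode a fibrinogen chain, a glutathione transferase, the lipocalin NGAL, a lipid droplet coat protein and a transcription factor. Fga had 22.5, 22.3 and 21.0 CPM in CIAKI+icariin, 241, 337 and 166 CPM in CIAKI and 18.5, 17.1 and 16.9 CPM in control kidneys. All 5 shared with Igfbp1 the order of the CIAKI kidneys, with CIAKI 2 highest and CIAKI 3 lowest. The CIAKI libraries entered the measure by which these genes were picked. The shared order is thus in part built into the choice and is a description only. The nearest to Igfbp3 were LOC108348048, Emp2, Ksr1, Plekho2 and Adm, at differences of 0.12 to 0.15. For a gene with so flat a profile, closeness by this measure mostly says that the other gene was flat too.

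Igfbp1, Fga and Igfals are known foremost as liver genes, so liver markers were looked at beside them. Summed over 7 hepatocyte markers the level was 27.4 to 36.1 CPM in CIAKI+icariin, 51.2 to 63.9 CPM in CIAKI and 29.2 to 44.8 CPM in control kidneys, and nearly all of it was Apob. Apob had 27.2, 32.4 and 35.9 CPM in CIAKI+icariin, 51.7, 63.2 and 50.4 CPM in CIAKI and 28.6, 44.6 and 40.3 CPM in control kidneys. It was the 1 marker of the 7 that passed the filter on low values, and limma called it higher in CIAKI against control and lower in CIAKI+icariin against CIAKI, the same directions as Igfbp1. Alb, the albumin gene, was near 0, with at most 0.493 CPM in any library, as were Ttr (at most 0.0932 CPM) and Serpina1 (at most 0.505 CPM). The part of liver RNA in the levels of Igfbp1 was not tested.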

How the data were processed

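Kidney RNA was taken with Trizol and made into TruSeq libraries, per the labels' protocols. Bowtie 0.12.2 and the build mm8 are named in the submitters' processing notes; mm8 is a mouse build while the gene identifiers are rat Ensembl ones, so the reference aligned to is not settled. The counter, annotation and strand setting were not found in the labels or files, and reads of overlapping genes cannot be separated.

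The main table was deposited by the authors in CPM. In every library 100% of values were whole multiples of 1 step (within 0.1 of a read), which gave whole reads, 64.38 to 90.4 of them for each CPM. A second table by the authors holds read counts and FPKM for selected mRNAs of CIAKI+icariin and CIAKI, and all 102 of its counts compared here equalled the recovered reads. The authors' deposited tables of other RNA classes were not used.

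Since the values are CPM, limma 3.58.1 (R 4.3.3) with an intensity trend was run on log2(CPM + 1) for the 16731 features that reached 1 CPM in 3 or more of the 9 libraries, with group as the factor and all 9 libraries in the fit. Tests were two-sided, with Benjamini-Hochberg adjustment over all features of a comparison and calls at an adjusted p below 0.05. The procedure was also run on simulated data with the same variation between rats set for every gene, a simpler setting than these data. On the recovered counts, edgeR 4.0.16 called 7028, 6745 and 76 genes (CIAKI against control, CIAKI+icariin against CIAKI, CIAKI+icariin against control) and DESeq2 1.42.0 called 7795, 7595 and 523, where limma called 6903, 6592 and 105. Other alternatives were the scaling, the filter, the added constant, the libraries fitted, the replicate block and leaving out each library.

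All members are named; from each list of related genes, up to 4 with the smallest p in CIAKI against control and any further gene called with at least a 2-fold change are named, and the 5 genes most like Igfbp1 and Igfbp3. The members and lists were chosen with earlier results of these data known. The symbols Pappa, Klk1, Irs4, Nr3c1, H19 and Pecam1 had no row that could be matched and are not analysed here, and 2 list genes that the rule would name are counted in their lists but not reported here. Promoter sequences are RefSeq's (GRCr8), and all 10 members were matched by symbol.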

Additional observations from a re-analysis of the deposited data

How the results depend on the processing

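Across 19 alternatives the calls of Igfbp1, Igfbp4, Igfbp5 and Igf1 held in CIAKI against control and in CIAKI+icariin against CIAKI, as did those of Igfbp2, Igfbp7 and Igf1r in CIAKI against control. The number of the 10 genes called in CIAKI+icariin against CIAKI was 4 to 7 when 1 library was left out, and 5 with no filter on low values and 5 with only the 6 libraries compared. In CIAKI+icariin against control it was 3 with DESeq2, 1 with TMM scaling (Igfbp2), 1 with quantile normalization (Igfbp2) and 1 with only the 6 libraries compared (Igfbp1), and 0 otherwise; the causes were not tested. All genes called there numbered 523 with DESeq2 and 52 with no filter on low values, and 31 to 127 when 1 library was left out. Signs changed for values near 0 that had not passed, when 1 library was left out. In CIAKI against control, Igfbp6 ranged between -0.02 and 0.37 (below 0 without CIAKI 3 or control 2) and Igf2r between -0.03 and 0.17 (below 0 without CIAKI 3). In CIAKI+icariin against CIAKI, Igfbp3 ranged between -0.0023 and 0.29 and Igfbp6 between -0.19 and 0.10 (both reversed without CIAKI 3), and in CIAKI+icariin against control Igfbp6 ranged between -0.10 and 0.30 (below 0 without control 2). No pairing of rats between groups by replicate number is stated. Same-numbered libraries deviated from their group means with correlations of -0.035 to 0.081. Such correlations over all genes cannot show whether a pairing touched a few genes. With the replicate block, 6678, 6314 and 73 genes were called in the 3 comparisons, and 7, 7 and 0 of the 10 genes, the same counts as without it. Fold changes of genes at a few CPM, Igfbp6, Igf2, Htra4 and Wisp3 among them, are held down by the added constant, and 3 rats a group limit what small differences can be called.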
